A study of Mus musculus with 6 samples.

Results

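The 10 genes described here encode the insulin-like growth factors (IGF1 and IGF2), their 2 receptors and 6 of the IGF-binding proteins (IGFBP2 to IGFBP7). They were picked by gene name from a table of 55420 rows, with earlier results of these data known, and each name had 1 record. RNA came from C2C12, a line of mouse myoblasts, on day 4 of myogenic differentiation. The cells had been kept in 10% fetal bovine serum and were differentiated in 2% horse serum. By their labels, 3 libraries have the genotype WT and 3 the genotype FHL3 KO, a knockout of a LIM-domain protein of striated muscle. Medium and day are the same in both groups. The latter 3 are called the knockout-labelled libraries here. How the knockout was made and how many clones it stands for are not given in the labels, so an effect of a clone cannot be told apart from that of the genotype. Nor do they state that libraries of a group are separate cultures, and p-values therefore measure the spread between these samples alone, which may be technical.

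IGF1 and IGF2 are secreted peptides that act through the receptor tyrosine kinase IGF1R, which signals through insulin receptor substrates to PI3K, AKT and mTOR and, on another branch, to MAP kinases. IGF2R, the cation-independent mannose-6-phosphate receptor, has no kinase domain and takes IGF2 into lysosomes. The binding proteins hold the ligands outside the cell, and proteases that cut them release the ligand. In cultured myoblasts, IGF2 is known as a factor that the cells make themselves during differentiation, and IGFBP5 as a binding protein of differentiating muscle cells.

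The deposited values were read as FPKM (fragments or reads per kilobase of gene and per size of the library), a unit inferred from the values, and their absolute depth is unknown. The targeted gene, Fhl3, was not lower under the knockout label: it ranged from 27.8 to 33.7 FPKM in WT and from 53.5 to 58.9 FPKM in the knockout-labelled libraries. The level of its RNA thus does not bear out the label. Since the labels do not say how the knockout was made, that level cannot show the label wrong either. Directions below are between groups as labelled. WT replicate 1 stood apart: 63 genes were above 1 FPKM there and more than 10 times higher than in any other library, against 0 to 6 such genes elsewhere. Hepatocyte markers (12 genes, Alb and Trf among them) summed to 135 FPKM in that library and to between 0 and 0.0695 FPKM in the other 5. Markers of differentiated myotubes summed to 1471 to 1639 FPKM in WT and 3412 to 3803 FPKM in the knockout-labelled libraries, and 7 of 8 rose. Fibroblast markers summed to 559.8 to 627 FPKM and to 288 to 325 FPKM. Of 6 tested, 1 rose and 3 fell, and Thy1 was at 0 throughout. Markers of undifferentiated myoblasts summed to 68.8 to 75.7 FPKM and 69.4 to 70.2 FPKM (of 5 tested, 1 rose and 2 fell), and proliferation markers to 97.4 to 117 FPKM and 94.2 to 111 FPKM (of 6, 2 rose and 3 fell). The near-equal sums for undifferentiated myoblasts hold opposite moves. On average Myf5 fell from 29.5 to 8.64 FPKM and Cd34 from 8.73 to 0.318 FPKM, while Sdc4 rose from 23.8 to 52.3 FPKM. Adipocyte markers summed to 1.42 to 1.97 FPKM and 4.33 to 4.86 FPKM, with the 1 tested, Cebpa, higher and Adipoq, Plin1 and Lep at 0 in every library. By the same test, described below, 19.7% of all genes tested rose and 21.2% fell. The part of these markers in the results below was not tested, and in such bulk RNA fewer cells of a type and less RNA per cell cannot be told apart.

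Of the 10 genes, 9 reached a mean of 1 FPKM in a group and were tested, and Igf1 did not. With limma on log2(FPKM + 1) across all 12528 genes tested and a Benjamini-Hochberg adjusted p of 0.05, 5 were called: Igfbp3, Igfbp7 and Igf2 rose in the knockout-labelled libraries, and Igfbp2 and Igfbp5 fell. Among all genes tested 40.8% were called, 19.7% as rises and 21.2% as falls, so 5 of 9 (55.6%) is not far from the background. With the libraries scaled to the same sum, 36.1% of all calls were rises, against 48.2% without that scaling, and the 5 calls among these genes stood with the same signs. They stood also without WT replicate 1, the library with hepatocyte transcripts. The 3 values of each group lay apart for these same 5 genes, as they did for 53.8% of all genes tested. A change of at least 2-fold on the log2(FPKM + 1) scale was called for 3 of the 9, Igfbp3, Igfbp2 and Igfbp7, against 6.07% of all genes. Igfbp3 and Igfbp4 reached a mean of 1 FPKM only in the knockout-labelled group, where they were higher, and so entered the test through it. In the fit without a filter Igfbp3 was called (limma adjusted p = 0.00137) and Igfbp4 was not (adjusted p = 0.154). The median log2 change was 0.07 for the 9 genes and -0.01 for all genes tested. An exact permutation test, two-sided, gave each of the 5 called genes p = 0.1, the smallest that 3 libraries against 3 allow.

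**Figure D1:**
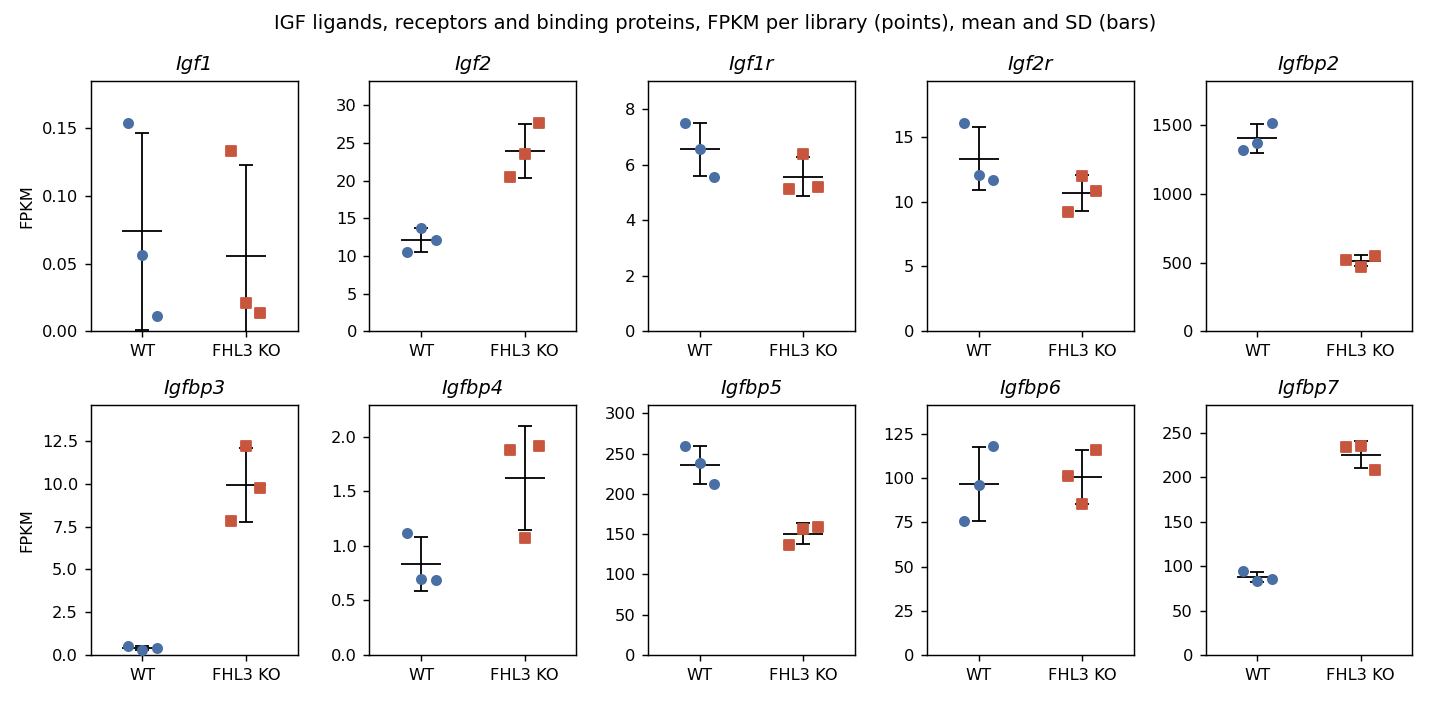
FPKM of the 10 genes in the 6 libraries; each point is a library, in the order of its replicate number, the bars show the mean and SD of 3, each panel has its own linear axis from 0 and an SD bar that would pass below 0 is cut there. The groups are apart for Igf2, Igfbp2, Igfbp3, Igfbp5 and Igfbp7 and overlap for the other 5 genes.

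Of the ligands, Igf2 was the one measured above the minimum, and it rose. Igf2 (ENSMUSG00000048583, chromosome 7, 142650766 to 142666816, GRCm38) was at 10.5, 13.7 and 12.1 FPKM in WT replicates 1 to 3 and at 20.5, 23.6 and 27.7 FPKM in the knockout-labelled replicates. The lowest of the latter was above the highest WT value. Mean levels of 12.1 ± 1.6 and 23.9 ± 3.6 FPKM (SD, n = 3 each) differ 1.97-fold, with a log2 change of 0.92 (SE 0.14, limma adjusted p = 0.00213). Igf1 (ENSMUSG00000020053, chromosome 10, 87858265 to 87937042) was at 0.154, 0.0562 and 0.0116 FPKM in WT, against 0.133, 0.0210 and 0.0135 FPKM in the knockout-labelled libraries. These values overlap, and the highest in each group was replicate 1. Fitted without a filter on low values, its log2 change was -0.02 (SE 0.066, limma adjusted p = 0.836).

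The neighbours of Igf2 on chromosome 7 did not move as one. Igf2 and H19, a maternally expressed long noncoding RNA, are oppositely imprinted genes that share enhancers, and they lie 72.6 kb apart. H19 stood at 3855, 4658 and 4952 FPKM in WT, against 3673, 3703 and 4719 FPKM in the knockout-labelled libraries. These ranges overlap, and the log2 change of -0.16 (SE 0.17) did not pass limma (adjusted p = 0.492). It was called lower after quantile normalization (-0.38, limma adjusted p = 0.0484) and after removal of each library's trend with transcript length and GC content (-0.39, adjusted p = 0.04). Ins2, an insulin gene 11.8 kb from Igf2, rose from 4.96 ± 0.60 to 6.91 ± 0.96 FPKM (SD, n = 3 each; limma adjusted p = 0.0417), a call that ended in 9 of 14 alternatives (adjusted p up to 0.236). Within 500 kb of Igf2, a window chosen after the data had been seen, 16 other genes were tested, of which 4 rose and 2 fell, with a median log2 change of 0.09. The shares over all genes tested were 19.7% for rises and 21.2% for falls. Besides Ins2, the rises were Syt8, at 1.37 and 8.86 FPKM on average, and the fast troponin genes Tnnt3, at 542 and 970.0 FPKM, and Tnni2, at 488 and 886 FPKM. The falls were Ctsd, at 434 and 351 FPKM, and Prr33, at 3.21 and 2.06 FPKM. The transcript Gm49394 shares 3596 exon bases with Igf2 on the same strand and was at a mean of 0.0298 FPKM, and no source used here gives the counting rule for shared exons. The antisense Igf2os, which overlaps 98 exon bases, was at 0 to 0.0208 FPKM in WT and 0.0864 to 0.219 FPKM in the knockout-labelled libraries.

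Neither receptor gene was called. Igf1r (ENSMUSG00000005533, chromosome 7, 67952827 to 68233668), the signalling receptor, was at 7.51, 6.56 and 5.57 FPKM in the 3 WT libraries; the knockout-labelled ones gave 5.11, 6.38 and 5.20 FPKM. Its log2 change was -0.20, with a 95% interval from -0.51 to 0.11 (limma adjusted p = 0.262). Igf2r (ENSMUSG00000023830, chromosome 17, 12682406 to 12769664), the clearance receptor, was at 16.1, 12.1 and 11.7 FPKM and at 9.21, 12.05 and 10.8 FPKM. Its log2 change was -0.29, with a 95% interval from -0.63 to 0.05 (limma adjusted p = 0.149). For both receptors the groups overlapped, and the highest value was WT replicate 1. No alternative called either gene. The antisense Airn, a noncoding RNA, starts within Igf2r and runs across the start of that gene, while the annotated exons of the 2 share no base. Airn was at 3.46 ± 0.64 and 1.97 ± 0.89 FPKM (SD, n = 3 each). Its log2 change of -0.62 did not pass limma (adjusted p = 0.0575), and it passed in 3 of 13 alternatives. The ratio of Igf2r to Igf1r in FPKM was 2.03 ± 0.16 in WT and 1.92 ± 0.14 in the other group, while that of Igf2 to Igf1r was 1.89 ± 0.43 and 4.34 ± 0.86 (SD, n = 3 each).

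**Figure D2:**
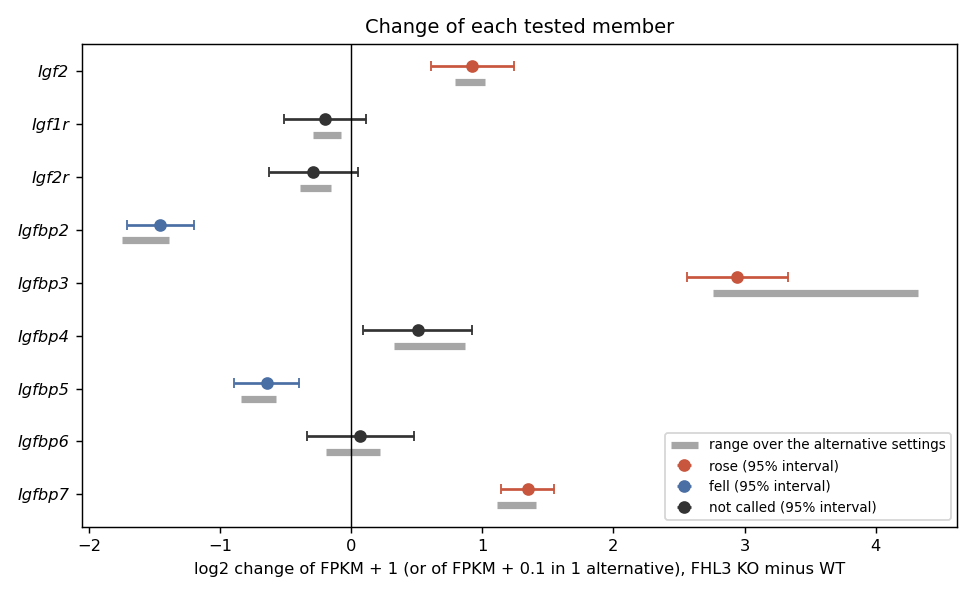
Log2 change (knockout-labelled minus WT) of the 9 tested genes; points and thin bars give the limma estimate with its 95% interval, grey bars the lowest and highest estimate over the alternative settings. The intervals of Igf2, Igfbp3 and Igfbp7 lie above 0 and those of Igfbp2 and Igfbp5 below it; Igfbp4, at 0.51, has an interval from 0.09 to 0.92 but did not pass after adjustment.

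The results on the binding proteins turn on 4 genes, Igfbp2 and Igfbp5, which fell, and Igfbp3 and Igfbp7, which rose. The sequences before their starts are shown so that the fallers and the risers can be set side by side, and because the series title names the transcription factor YY1. They are the 250 bases upstream of the RefSeq start (GRCm38.p6), 5′ to 3′ on the strand of the gene. Searched on both strands were the E-box CANNTG, which basic helix-loop-helix factors bind, the YY1 core CCATNTT and the TATA box TATAAA. Matches to these are in capitals. The E-box form CAGCTG, the GC box GGGCGG and the CCAAT box were searched too and are left in lower case. The windows are chr1:72824230-72824479 (plus strand) for Igfbp2, the first of its 2 windows, chr1:72874866-72875115 (minus) for Igfbp5, chr11:7213924-7214173 (minus) for Igfbp3 and chr5:77408046-77408295 (minus) for Igfbp7.
Igfbp2: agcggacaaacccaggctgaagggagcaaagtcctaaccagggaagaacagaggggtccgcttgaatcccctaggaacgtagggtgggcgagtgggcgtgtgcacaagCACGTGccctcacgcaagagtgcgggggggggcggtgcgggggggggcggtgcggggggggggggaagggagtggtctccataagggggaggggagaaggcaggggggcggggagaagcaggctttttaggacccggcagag
Igfbp5: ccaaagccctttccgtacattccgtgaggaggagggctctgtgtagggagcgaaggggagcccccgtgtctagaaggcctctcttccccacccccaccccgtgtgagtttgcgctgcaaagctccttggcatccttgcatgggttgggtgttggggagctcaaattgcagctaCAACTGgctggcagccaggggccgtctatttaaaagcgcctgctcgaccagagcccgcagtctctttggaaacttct
Igfbp3: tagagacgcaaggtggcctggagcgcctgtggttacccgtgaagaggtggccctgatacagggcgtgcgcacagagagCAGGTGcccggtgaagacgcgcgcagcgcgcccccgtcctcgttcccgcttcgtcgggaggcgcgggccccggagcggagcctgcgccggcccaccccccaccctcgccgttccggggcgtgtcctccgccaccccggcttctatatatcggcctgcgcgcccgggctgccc
Igfbp7: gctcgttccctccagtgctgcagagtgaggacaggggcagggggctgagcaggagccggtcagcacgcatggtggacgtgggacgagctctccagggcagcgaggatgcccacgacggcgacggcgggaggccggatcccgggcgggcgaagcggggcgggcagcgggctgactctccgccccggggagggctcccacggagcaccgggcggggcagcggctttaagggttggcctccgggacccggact
The capitals mark 1 E-box each in Igfbp2, Igfbp5 and Igfbp3, starting 142, 77 and 172 bases before the start, and no match in Igfbp7. An E-box is present in 66.2% of all 32851 RefSeq windows of this length. The YY1 core, present in 12.4% of all windows, and the letters TATAAA, also in 12.4%, have no match in these 4 windows. TATA-like sequences with other letters were not searched and cannot be called absent. The same holds for CAGCTG, the E-box form of MyoD and myogenin (13% of all windows), and for the CCAAT box (33.8%). The GC box, present in 32.7% of all windows, has 3 matches in Igfbp2, 4 in Igfbp7 and 0 in Igfbp5 and Igfbp3. Of the 4 windows of Igf2, 1 has a YY1 core. The Igfbp3 and Igfbp7 windows are 73.2% and 74.0% G or C, those of Igfbp2 and Igfbp5 67.2% and 58.8%, and the median of all windows is 52.4%. A match of letters is no evidence of binding, and these data do not measure binding.

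The binding proteins moved in opposite directions, with the most abundant of them falling. Igfbp2 (ENSMUSG00000039323, chromosome 1, 72824503 to 72852474), a binding protein with an integrin-binding motif, was at 1319, 1374 and 1518 FPKM in WT, against 522, 467 and 545 FPKM in the knockout-labelled libraries. Each of the latter was below every WT value. The means of 1404 ± 103 and 511 ± 39.8 FPKM (SD, n = 3 each) differ 2.75-fold, and the log2 change was -1.46 (SE 0.11, limma adjusted p = 0.000146). By mean level Igfbp2 held rank 28 of the 12528 genes tested in WT and rank 139 in the other group.

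Igfbp5, which lies tail to tail with Igfbp2 at a distance of 5.5 kb, fell as well. Igfbp5 (ENSMUSG00000026185, chromosome 1, 72857932 to 72874884) was at 259, 238 and 212 FPKM in WT, against 136, 157 and 159 FPKM in the knockout-labelled libraries. The groups did not overlap. The means of 236 ± 23.4 and 151 ± 13.1 FPKM (SD, n = 3 each) differ 1.57-fold, with a log2 change of -0.64 (SE 0.11, limma adjusted p = 0.00334). The ratio of Igfbp2 to Igfbp5 in FPKM was 5.10, 5.77 and 7.17 in WT and 3.85, 2.97 and 3.42 in the knockout-labelled libraries, lower in each of the latter, a difference described without a test. Besides the pair itself, 3 genes within 500 kb were tested. Among all genes tested 19.7% rose and 21.2% fell, and among those on chromosome 1 15.6% rose and 26.3% fell. Xrcc5, which encodes a DNA end-binding subunit of the repair machinery, fell from 36.7 to 22.7 FPKM on average (limma adjusted p = 0.000571), and Smarcal1 and Rpl37a did not pass (adjusted p of 0.183 and 0.658).

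Igfbp3 showed the largest change of the 10 genes. Igfbp3 (ENSMUSG00000020427, chromosome 11, 7206086 to 7213923), the main carrier of IGFs in serum, was at 0.524, 0.271 and 0.421 FPKM in the 3 WT libraries; the knockout-labelled ones gave 7.85, 12.2 and 9.75 FPKM. Every value of the first group was under 1 FPKM and every value of the second was well above it. The means of 0.406 ± 0.13 and 9.92 ± 2.2 FPKM (SD, n = 3 each) differ 24.5-fold. The difference on the log2(FPKM + 1) scale, where changes of low genes come out smaller, was 2.94 (SE 0.16, limma adjusted p = 4.73e-05), rank 22 of all genes tested by size, and with a pseudocount of 0.1 it was 4.32. No other gene within 500 kb was tested. Its neighbour Igfbp1, a liver binding protein 3.5 kb away, was listed at 0.448 FPKM in WT replicate 1, the library with hepatocyte transcripts, and at 0 in the other 5.

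Igfbp7 also rose. Igfbp7 (ENSMUSG00000036256, chromosome 5, 77349240 to 77408041), a matrix-associated relative with low affinity for IGFs, was at 94.3, 83.7 and 85.9 FPKM in WT, against 234, 235 and 208 FPKM in the knockout-labelled libraries. The lowest of the latter was more than double the highest WT value. The means of 88.0 ± 5.6 and 226 ± 15.6 FPKM (SD, n = 3 each) differ 2.57-fold, with a log2 change of 1.35 (SE 0.088, limma adjusted p = 8.8e-05). The end of Igfbp7 overlaps that of Polr2b by 85 exon bases on the other strand, and no source used here says whether counting used strand. Polr2b, an RNA polymerase II subunit, was at 25.6 ± 2.4 and 20.1 ± 2.4 FPKM (SD, n = 3 each), opposite in direction. Of 8 tested genes within 500 kb of Igfbp7, 1 rose and 2 fell, with a median log2 change of -0.16, beside 19.7% and 21.2% of all genes tested.

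The remaining binding proteins were not called. Igfbp4 (ENSMUSG00000017493, chromosome 11, 99041244 to 99054392), an inhibitory binding protein, was at 1.12, 0.700 and 0.683 FPKM in WT, against 1.88, 1.07 and 1.91 FPKM in the knockout-labelled libraries. The groups overlapped through WT replicate 1 and knockout-labelled replicate 2, and the log2 change of 0.51 (SE 0.18) had a limma adjusted p of 0.0555. It was called without WT replicate 1 (0.61, limma adjusted p = 0.0469), without knockout-labelled replicate 2 (0.67, adjusted p = 0.0153) and after quantile normalization (0.71, adjusted p = 0.0179). Its adjusted p ran up to 0.175 over the alternatives, and its log2 change was 0.87 with a pseudocount of 0.1 and 0.33 after removal of the length and GC trend. Igfbp6 (ENSMUSG00000023046, chromosome 15, 102144362 to 102149511), which prefers IGF2 over IGF1, was at 75.8, 96.4 and 118 FPKM and at 101, 85.3 and 116 FPKM. The ranges overlap, and the log2 change of 0.07 had a 95% interval from -0.34 to 0.48 (limma adjusted p = 0.774). Its sign flipped without WT replicate 1 (-0.09), without knockout-labelled replicate 3 (-0.03), after quantile normalization (-0.10) and after removal of the length and GC trend (-0.19). Scaling to the same sum gave -0.04, in a fit where the median of all genes moved from -0.01 to -0.10.

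The mix of binding protein RNA differed between the groups. Read as FPKM, the values are per length, and on that reading levels of different genes are set side by side here. The unit is inferred, and the gene lengths used for it are not given. The 6 genes summed to 1749, 1793 and 1935 FPKM in WT and to 1003, 958 and 1039 FPKM in the knockout-labelled libraries. This is 0.406% ± 0.0077 and 0.206% ± 0.0049 of the FPKM sum of a library (SD, n = 3 each). Without Igfbp2 the order was the other way round, at 417 to 430.2 FPKM in WT and 481 to 494 FPKM in the other group. The share of Igfbp2 in the sum was 76.8% ± 1.5 in WT and 51.1% ± 2.0 in the knockout-labelled libraries, and that of Igfbp7 was 4.83% ± 0.50 and 22.6% ± 2.3. Igfbp6 took 5.27% ± 0.89 and 10.0% ± 1.1, Igfbp3 0.0223% ± 0.0074 and 0.997% ± 0.25, and Igfbp4 0.0462% ± 0.016 and 0.161% ± 0.043. The share of Igfbp5 was 13.0% ± 1.9 and 15.1% ± 1.5, with overlapping ranges, although its level fell. These shares are a description without a test. They move together by construction, since they add up to the same total in every library. The summed level was 152 ± 18.8 times that of Igf2 in WT and 42.4 ± 5.9 times in the knockout-labelled libraries.

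**Figure D3:**
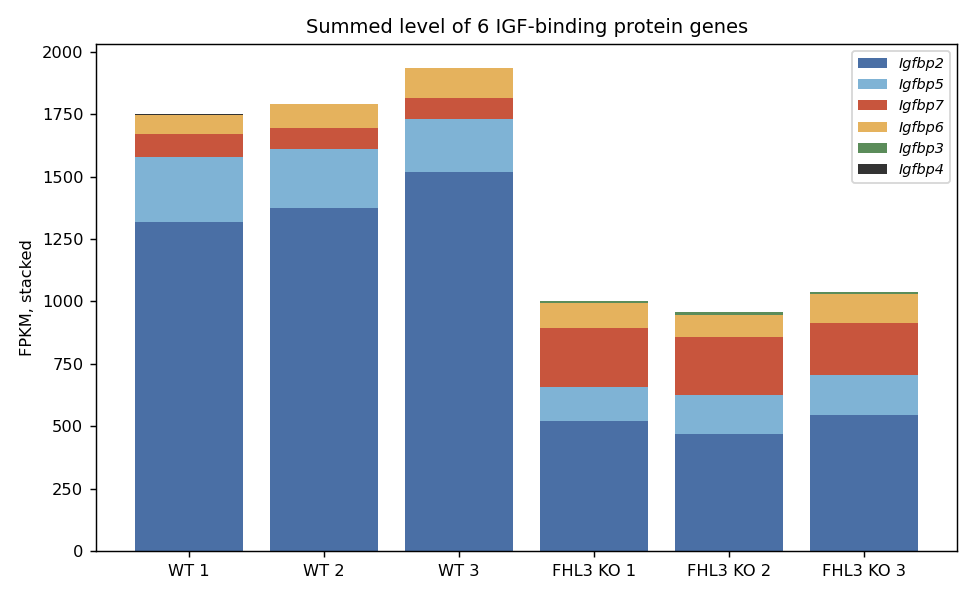
FPKM of the 6 binding protein genes stacked for each library, on a linear axis from 0. The 3 WT libraries reach 1749 to 1935 FPKM, mostly Igfbp2, and the 3 knockout-labelled ones reach 958 to 1039 FPKM, with a larger part from Igfbp7.

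Igfbp2 had the highest level and Igf1 the lowest in both groups, and every rank between held a different gene in each. In WT it ran Igfbp2, Igfbp5, Igfbp6, Igfbp7, Igf2r, Igf2, Igf1r, Igfbp4, Igfbp3, Igf1, and in the knockout-labelled libraries Igfbp2, Igfbp7, Igfbp5, Igfbp6, Igf2, Igf2r, Igfbp3, Igf1r, Igfbp4, Igf1. The ranges of neighbours in this order overlapped for Igfbp6 with Igfbp7 and Igf2r with Igf2 in WT, and for Igf2r with Igfbp3 in the other group. The genes with the most similar profile to Igfbp3, by Euclidean distance of centred log2(FPKM + 1) values over the 6 libraries, were Cap2, Reep1 and Lbx1, at distances of 0.38, 0.39 and 0.47. For Igfbp2 they were Mctp1, Gm6565 and Plat, at 0.19, 0.25 and 0.27. The log2 changes of the first 3 were 3.12, 2.88 and 2.78, beside 2.94 for Igfbp3, and those of the others -1.46, -1.59 and -1.32, beside -1.46 for Igfbp2. Near-equal changes follow from the choice by distance over the same values and are no separate result. Nor does an equal change of log2(FPKM + 1) mean an equal fold change. Mctp1 went from 1.79 to 0.0175 FPKM on average, and Igfbp2 from 1404 to 511 FPKM.

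Among other genes that act on the binding proteins, a protease and its inhibitors moved in opposite directions. Of 10 genes on this list 7 were tested, 2 rose and 1 fell, with a median log2 change of -0.04. Counts for this list and those below stand beside 40.8% called among all genes tested, 19.7% as rises and 21.2% as falls. Pappa encodes pappalysin 1, the protease that cuts IGFBP4 and IGFBP5. It was at 3.02, 1.98 and 1.77 FPKM in the 3 WT libraries; the knockout-labelled ones gave 0.150, 0.185 and 0.139 FPKM, 14.3-fold lower on average (log2 change -1.47, SE 0.16, limma adjusted p = 0.000677). The stanniocalcins, which inhibit pappalysins, were higher in all 3 of these libraries. Stc1 was at 0.226, 0.229 and 0.119 FPKM in WT, against 3.08, 4.16 and 4.91 FPKM (log2 change 2.07, SE 0.16, limma adjusted p = 0.000167). Stc2 was at 5.13, 5.17 and 5.93 FPKM and at 12.03, 13.4 and 13.0 FPKM (log2 change 1.11, SE 0.096, limma adjusted p = 0.00025). Each of these 3 calls stood in every alternative that tested the gene, and with a pseudocount of 0.1 the log2 changes of Pappa and Stc1 were -3.16 and 3.83. The proteases Htra1, at 47.9 ± 1.9 and 46.6 ± 1.9 FPKM (SD, n = 3 each), Htra3, Adam9 and Adamts1 did not pass, and Pappa2, Adam12 and the acid-labile subunit Igfals were under 1 FPKM in both groups.

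Other proteins with the IGFBP amino-terminal domain split. Of 10 genes 5 were tested, 2 rose and 2 fell, with a median log2 change of -0.33. Of the matricellular genes, Ccn1 rose from 123 ± 4.7 to 201 ± 6.6 FPKM, and Ccn2 rose from 212 ± 28.6 to 433 ± 75.2 FPKM (SD, n = 3 each), at limma adjusted p of 0.000547 and 0.0023. Ccn3 fell 11.7-fold, from 145 ± 10.8 to 12.4 ± 0.58 FPKM (limma adjusted p = 1.68e-06), while Ccn5 fell from 1.08 ± 0.098 to 0.244 ± 0.099 FPKM (adjusted p = 0.00381), with a log2 change of -0.75, or -1.82 with a pseudocount of 0.1.

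Downstream of the receptors, genes were called in both directions. Of the 14 receptor relatives and adaptors 10 were tested, 2 rose and 1 fell, with a median log2 change of 0.10. The docking protein Irs1 fell from 16.3 ± 2.2 to 10.8 ± 1.6 FPKM (limma adjusted p = 0.0141), a call that ended without WT replicate 2 (0.054) and without knockout-labelled replicate 1 (0.0545). The docking protein Gab1 rose from 5.94 ± 0.92 to 9.42 ± 0.93 FPKM (limma adjusted p = 0.00889). The adaptor Sh2b1 rose from 22.2 ± 0.14 to 29.2 ± 0.46 FPKM (limma adjusted p = 0.00433), which ended after removal of the length and GC trend (log2 change 0.13, adjusted p = 0.21). The insulin receptor Insr, at 3.87 ± 0.85 and 4.57 ± 0.59 FPKM, did not pass (limma adjusted p = 0.32).

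Of 24 PI3K, AKT and mTOR genes, all tested, 5 rose and 4 fell, with a median log2 change of -0.10. The catalytic subunit Pik3ca fell from 11.3 ± 1.8 to 5.88 ± 1.6 FPKM (SD, n = 3 each; limma adjusted p = 0.00853). The regulatory subunit Pik3r2 rose from 33.8 ± 1.1 to 54.2 ± 4.6 FPKM and the translation repressor Eif4ebp1 from 28.7 ± 5.4 to 63.7 ± 10.2 FPKM, with limma adjusted p-values of 0.00122 and 0.00214. Akt2, Phlpp1 and Rptor also rose, and Rps6kb1 and Rictor also fell. Of these, Akt2 was called in 14 of 14 alternatives, Rps6kb1 in 13 of 14, Phlpp1 in 8 of 13, Rictor in 7 of 13 and Rptor in 5 of 14. The Rps6kb1 call ended after removal of the length and GC trend (log2 change -0.15 instead of -0.61, limma adjusted p = 0.124). That removal also moved the log2 change of Pik3ca from -0.85 to -0.43 and that of Pik3r2 from 0.66 to 0.40, and both stayed called. Over the alternatives 3 to 7 genes rose and 3 to 6 fell.

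Of the FoxO factors and their targets, 10 of 11 were tested, 4 rose and 2 fell, with a median log2 change of 0.14. The muscle ubiquitin ligase Trim63 rose from 13.5 ± 1.2 to 33.9 ± 1.6 FPKM (SD, n = 3 each; limma adjusted p = 0.000115), while the other atrophy ligase, Fbxo32, fell from 11.1 ± 1.6 to 8.26 ± 0.65 FPKM (adjusted p = 0.0353, called in 9 of 14 alternatives). The factor Foxo6 rose from 16.9 ± 1.3 to 26.6 ± 1.0 FPKM and the mitophagy receptor Bnip3 from 33.0 ± 0.56 to 46.1 ± 6.1 FPKM, with limma adjusted p-values of 0.00148 and 0.0112. The log2 change of Foxo6 was 0.24 instead of 0.62 after removal of the length and GC trend (adjusted p = 0.023). Foxo1 rose from 2.64 ± 0.71 to 4.67 ± 0.57 FPKM (limma adjusted p = 0.0149), a call that ended without a filter (0.0581) and without WT replicate 2 (0.0613).

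Of the growth hormone axis, which drives IGF1 production in liver, 7 of 8 genes were tested, 0 rose and 3 fell, with a median log2 change of -0.13. Over the alternatives 0 to 2 rose and 2 to 3 fell. The share called, 3 of 7, is near the 40.8% of all genes tested. The receptor Ghr fell from 14.8 ± 2.6 to 8.89 ± 1.4 FPKM and its kinase Jak2 from 5.45 ± 0.96 to 2.04 ± 0.044 FPKM (SD, n = 3 each; limma adjusted p of 0.0106 and 0.000946). After removal of the length and GC trend the log2 change of Ghr was -0.25 instead of -0.67 (adjusted p = 0.0359). The feedback inhibitor Socs3 was also called lower (limma adjusted p = 0.0487), in 7 of 14 alternatives, with a log2 change of -0.34 that became -0.61 after the same removal. Of the mannose-6-phosphate genes, whose products tag and sort lysosomal enzymes, the tagging enzyme Gnptab was the 1 of 4 called, falling from 10.1 ± 1.2 to 6.20 ± 0.73 FPKM (limma adjusted p = 0.0067). The median log2 change of that list was -0.20. Of the IGF2 mRNA-binding proteins, Igf2bp2 fell from 13.8 ± 0.42 to 9.25 ± 0.54 FPKM (limma adjusted p = 0.0029), and Igf2bp1 and Igf2bp3 were under 1 FPKM in every library.

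Of the 9 genes listed as lying beside the IGF genes, H19, Ins2 and Airn were the 3 tested, with a median log2 change of -0.16. In all, 71 of the 92 listed genes were tested, and 31 (43.7%) were called, 16 as rises and 15 as falls, near the 40.8% of all genes. With the libraries scaled to the same sum 13 rose and 21 fell. Of these 71 genes, 6 lie on chromosome 8 (Adam9, Insr, Irs2, Gab1, Pik3r2 and Eif4ebp1), where 51.5% of 676 tested genes rose and the median log2 change was 0.37. The last 3 of the 6 rose, and the part of the chromosome in their change was not tested. None of the 10 IGF genes lies there.

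**Figure D4:**
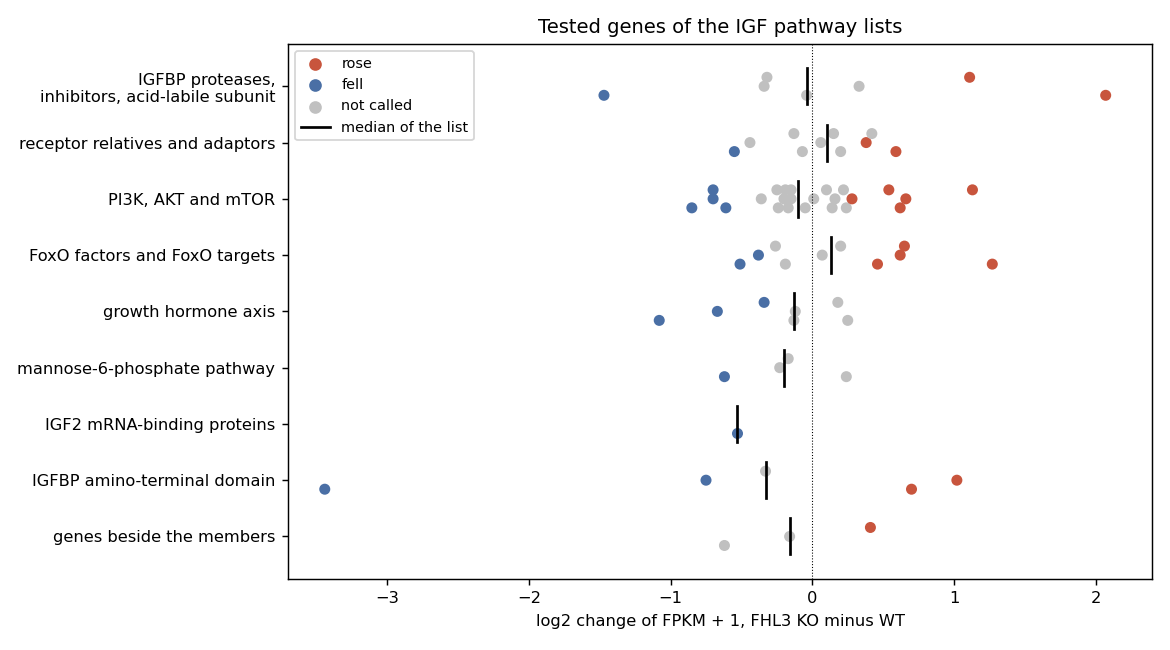
Log2 change (knockout-labelled minus WT) of each tested gene in 9 lists around the IGF genes; each point is a gene, coloured by its limma call, and black bars are the medians of the lists. Most lists hold genes on both sides of 0, with Stc1 at 2.07, Pappa at -1.47 and Ccn3 at -3.44 farthest out.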

How the data were processed

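Gene expression was measured by RNA-seq in 6 libraries of C2C12 cells, 3 labelled WT and 3 labelled FHL3 KO. RNA was extracted with Trizol, per the labels' protocols. The submitters' processing notes list the build mm10 and, without role or order, DESeq2 1.28.1, featureCounts 2.0.1, HISAT2 2.2.1 and Trim Galore 0.6.6. No source used here gives the annotation or strand setting. The values deposited by the authors were taken as FPKM: they are decimals whose column sums differ (425080 to 494176), and the file header names no unit. Reads per library are unknown.

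Left out were 7 rows sharing 3 repeated gene IDs. Gene positions, lengths and GC content came from GENCODE M21 (GRCm38). A gene was fitted where its mean reached 1 FPKM in either group (12528 genes), as log2(FPKM + 1) with limma 3.58.1 in R 4.3.3 (mean-variance trend, two-sided, Benjamini-Hochberg over all genes, threshold 0.05, no covariates). A gene that reached this mean in 1 group only, such as Igfbp3, Igfbp4, Stc1, Pappa or Ccn5, entered through the group where it was higher. Exact permutation tests used SciPy 1.17.1. The steps were tested on simulated data.

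The members, the lists and the tests were chosen with earlier results of these data known. Named were all 10 members, Fhl3, the called genes of each list (at most the 4 with the smallest p), the genes beside the members, and the 3 genes nearest in profile to the largest riser and faller. One called gene of the PI3K, AKT and mTOR list is counted but not reported here. Other list genes that the text names, the genes within 500 kb and the promoter motifs were chosen after values were seen. The fit was repeated with a pseudocount of 0.1, with a filter at 5 FPKM or none, quantile normalization, scaling to the same sum, scaling by median ratios, taking out each library's spline trend (5 degrees of freedom) with GC content and exon length, a block for the replicate number, each library left out in turn, and a threshold of 0.01.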

Additional observations from a re-analysis of the deposited data

How the results depend on the processing

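The 5 calls among the IGF genes stood with the same sign in all 14 alternative fits and at a threshold of 0.01, and no other of the 9 tested was called except Igfbp4, in the 3 fits given above. Of the 36 named genes with a fit, 8 changed their call in some alternative and 0 of those called changed sign. These 36 leave out the genes nearest in profile, the other genes within 500 kb and the list genes picked after values were seen. Among those left out, the calls of Fbxo32, Rptor, Rictor, Phlpp1, Rps6kb1 and Polr2b ended in some alternatives, while that of Akt2 stood. Leaving out a library changed the count of all genes called from 5112 to between 3272 and 5273, the lowest without WT replicate 2. The count was 2695 at a threshold of 0.01, where 19 of the pathway list genes were called instead of 31. The difference in the Igfbp2 share, knockout-labelled minus WT, was -25.75 percentage points, and -26.46 to -24.59 with a library left out. For Igfbp7 it was 17.80 (16.86 to 19.12), and for Igfbp5 2.09 (1.06 to 2.98). With the replicate number as a block, 4759 genes were called, 5 of the IGF genes among them, and 29 of the pathway list genes. The numbers are not known to pair the samples: deviations from the group means correlated across genes at -0.13, -0.06 and 0.32 for equal numbers, and WT replicate 1 correlated best with knockout-labelled replicate 2 (0.37). The Ins2 call ended with the block (adjusted p = 0.0606), and no other of the 36 did. Depth is unknown, which limits what can be said of Igf1, Igfbp1 and other genes under 1 FPKM.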
